A study of Danio rerio with 24 samples.

Results

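The genes described here are the zebrafish activators of the zygotic genome: pou5f3, nanog and 4 SoxB1 genes, sox19b, sox19a, sox2 and sox3. They were found as the array rows whose only gene symbol in the probe annotation was one of these names, which gave 7 rows (1 each, and 2 for sox19b) of 61240 rows tested, and 6 of the 19260 genes with a row of their own. They were measured in whole zebrafish embryos kept in 2 µM TDCIPP, an organophosphate flame retardant, or in 0.1% DMSO, the vehicle that the TDCIPP solution also carries. Exposure began at 0.75 hours post-fertilization (hpf). It ended at 6 hpf, when gastrulation begins in untreated embryos, or at 2 hpf, during cleavage and before most zygotic transcription. The 4 groups were TDCIPP at 6 hpf, DMSO at 6 hpf, TDCIPP at 2 hpf and DMSO at 2 hpf, each with 3 pools of 25 embryos of the wildtype 5D strain. Each pool was hybridized to 2 arrays, which were averaged, so that 24 arrays gave 12 pools. Values are log2 signals, in which a difference of 1 means a doubling.

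An early fish embryo runs on RNA and protein that the mother placed in the egg. Pou5f3 (a POU-homeodomain factor related to mammalian Oct4), Nanog (a homeodomain factor) and the SoxB1 factors (HMG-box proteins) bind regulatory DNA together, open chromatin and switch on the first zygotic genes, while the maternal RNA is cleared. Transcripts of pou5f3, nanog and sox19b are deposited by the mother. The other SoxB1 genes are transcribed by the embryo itself, in the future ectoderm and later in the neural plate, where they hold cells in a progenitor state.

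All 7 rows changed between 2 and 6 hpf in both treatments, and none passed the test for an effect of TDCIPP at either time. The rows of pou5f3, nanog, sox19a, sox2 and sox3 rose, and both rows of sox19b fell. By limma with Benjamini-Hochberg adjustment over all tested rows and a threshold of 0.1, 20.7% of all rows were higher and 19.5% lower at 6 hpf in TDCIPP embryos, while the shares in DMSO embryos were 20.0% higher and 19.9% lower. With each array centred on its median, 13.9% were higher and 28.3% lower in TDCIPP embryos and 14.4% higher and 29.1% lower in DMSO embryos, and the 7 rows kept their directions and calls. Over the 6 genes, the median change from 2 to 6 hpf was 1.16 in TDCIPP and 1.13 in DMSO, beside 0.033 and 0.015 over all rows. These tests share the 12 pools and are not independent of each other.

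**Figure D1:**
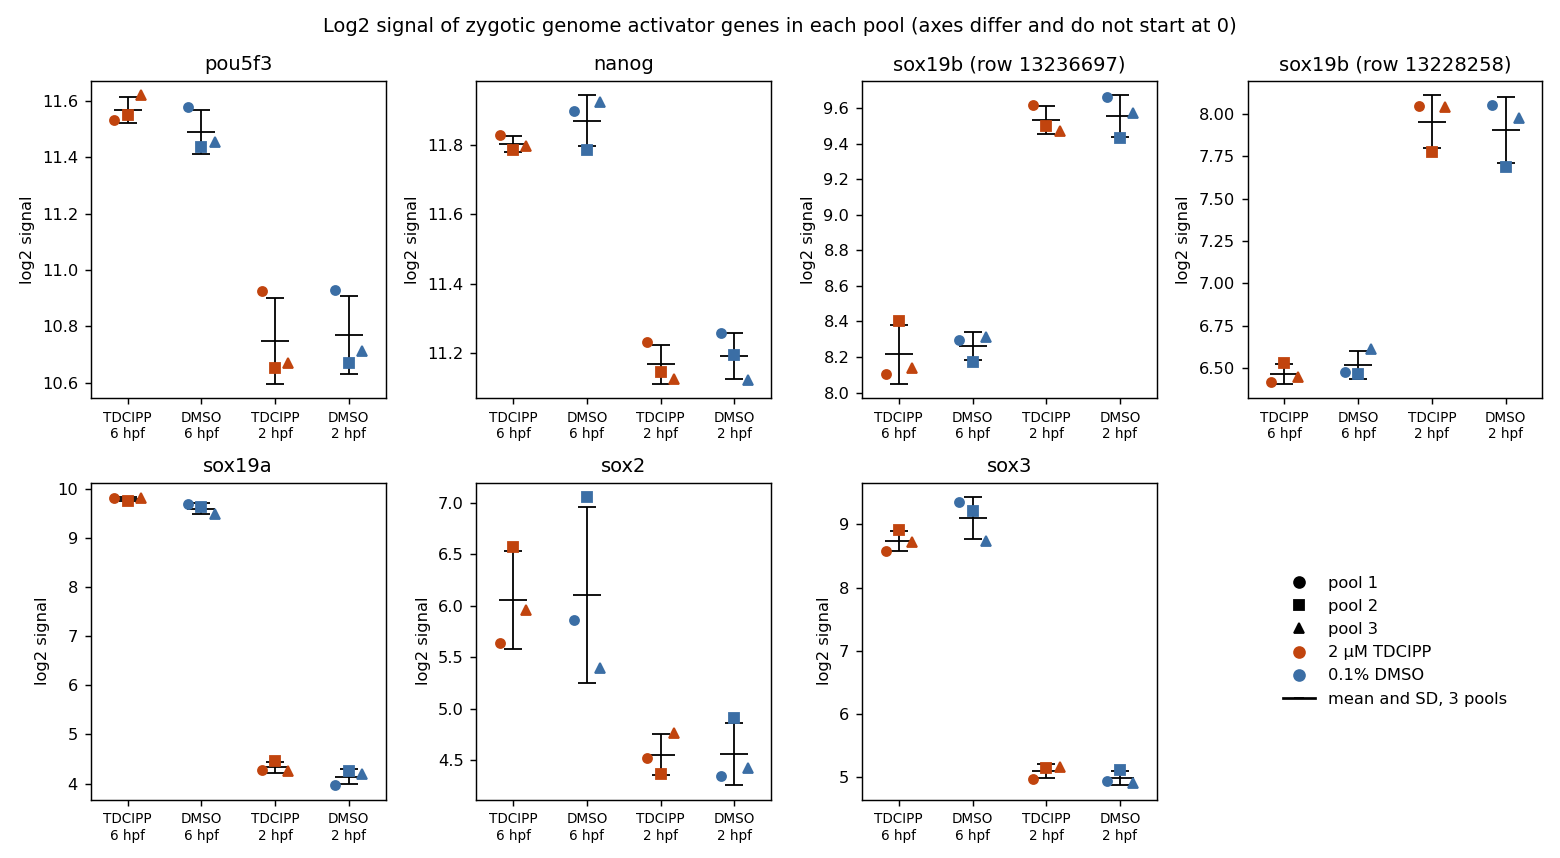
Log2 signal (y axis, a separate scale for each panel) of the 7 array rows in the 12 pools, by group on the x axis; points are pools, and lines give the mean and SD of 3 pools. The 6 hpf pools of pou5f3, nanog, sox19a, sox2 and sox3 lie above their 2 hpf pools and those of sox19b below, while the TDCIPP and DMSO pools of a time point overlap except for sox19a at 6 hpf.

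Among the maternally supplied activators, pou5f3 (row 13114267) had log2 signals of 11.53, 11.55 and 11.62 in TDCIPP pools and 11.58, 11.44 and 11.45 in DMSO pools at 6 hpf. At 2 hpf it had 10.92, 10.65 and 10.67 in TDCIPP pools and 10.93, 10.67 and 10.71 in DMSO pools. Every 6 hpf pool thus lay above every 2 hpf pool, and at 2 hpf pool 1 was the highest in both treatments. The signal rose by 0.82 in TDCIPP embryos (SE 0.10, 1.76-fold, limma adjusted p = 2.13e-05) and by 0.72 in DMSO embryos (SE 0.10, 1.65-fold, adjusted p = 7.08e-05). The order of the means was TDCIPP at 6 hpf (11.57 ± 0.046, SD, n = 3), DMSO at 6 hpf (11.49 ± 0.077), DMSO at 2 hpf (10.77 ± 0.14) and TDCIPP at 2 hpf (10.75 ± 0.15). Within each time point the pools of the treatments overlapped, and their difference did not pass the test.

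nanog (row 13144517), which in zebrafish is also needed for the yolk syncytial layer and epiboly, followed the same course. Its log2 signals at 6 hpf were 11.83, 11.78 and 11.80 in TDCIPP pools and 11.90, 11.79 and 11.92 in DMSO pools. At 2 hpf they were 11.23, 11.15 and 11.13 in TDCIPP pools and 11.26, 11.20 and 11.12 in DMSO pools. The times did not overlap and the treatments did. The rise was 0.63 in TDCIPP embryos (SE 0.083, 1.55-fold, limma adjusted p = 3.09e-05) and 0.68 in DMSO embryos (SE 0.083, 1.60-fold, adjusted p = 1.62e-05). At 6 hpf the mean was 11.80 ± 0.023 in TDCIPP and 11.87 ± 0.073 in DMSO pools, and at 2 hpf it was 11.17 ± 0.056 in TDCIPP and 11.19 ± 0.067 in DMSO pools (SD, n = 3 each). The SD of TDCIPP pools at 6 hpf was smaller than in 97.6% of rows.

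The size of both rises depended on the scaling. The arrays were normalized to each other and started from a fixed amount of total RNA, so a change over time is relative to the other transcripts. In the values as given, the array medians over the tested rows still differed by time. They were 4.47 to 4.54 at 6 hpf and 4.32 to 4.46 at 2 hpf. With quantile normalization repeated over all arrays, the rise of nanog was 0.40 in TDCIPP and 0.40 in DMSO embryos, and that of pou5f3 was 0.61 in TDCIPP and 0.47 in DMSO embryos, all still past the threshold. Centring each array on its median lowered every change over time by 0.14 in TDCIPP and 0.13 in DMSO embryos. In whole embryos, fewer cells of a type and less RNA per cell cannot be told apart.

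sox19b, the SoxB1 gene with the main maternal supply, moved the other way. Row 13236697 had log2 signals of 8.10, 8.40 and 8.14 in TDCIPP pools and 8.29, 8.17 and 8.32 in DMSO pools at 6 hpf. At 2 hpf it had 9.62, 9.50 and 9.47 in TDCIPP pools and 9.66, 9.43 and 9.57 in DMSO pools. All 6 hpf pools were below all 2 hpf pools, and pool 2 was the highest TDCIPP pool and the lowest DMSO pool at 6 hpf. The signal fell by 1.32 in TDCIPP embryos (SE 0.10, 2.49-fold lower, limma adjusted p = 2.20e-07) and fell by 1.30 in DMSO embryos (SE 0.10, 2.45-fold lower, adjusted p = 2.48e-07).

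The second sox19b row, 13228258, read 6.42, 6.53 and 6.45 in TDCIPP pools and 6.48, 6.46 and 6.61 in DMSO pools at 6 hpf. At 2 hpf it read 8.05, 7.78 and 8.04 in TDCIPP pools and 8.06, 7.69 and 7.98 in DMSO pools. It fell by 1.49 in TDCIPP embryos (2.82-fold lower, limma adjusted p = 1.38e-07) and fell by 1.39 in DMSO embryos (2.62-fold lower, adjusted p = 2.71e-07). Both rows of the gene therefore gave the same direction, with falls that differed by less than 0.2 within a treatment. In both treatments pool 2 was the lowest at 2 hpf in this row.

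sox19a (row 13203972), the close relative of sox19b that the embryo transcribes itself, had the largest rise of the 6 genes. At 6 hpf its log2 signals were 9.81, 9.74 and 9.81 in TDCIPP pools and 9.68, 9.62 and 9.47 in DMSO pools. At 2 hpf they were 4.28, 4.46 and 4.25 in TDCIPP pools and 3.97, 4.26 and 4.19 in DMSO pools. The 2 hpf values lay close to the medians of the 2 hpf arrays, 4.32 to 4.46, and whether they exceeded background was not tested. The rise was 5.45 in TDCIPP embryos (SE 0.10, 43.9-fold, limma adjusted p = 2.91e-13) and 5.45 in DMSO embryos (SE 0.10, 43.8-fold, adjusted p = 2.52e-13). In DMSO embryos it exceeded the change of 99.7% of rows.

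sox3 (row 13010710), a SoxB1 gene of the blastula and the prospective ectoderm, came next. Its log2 signals at 6 hpf were 8.58, 8.91 and 8.72 in TDCIPP pools and 9.36, 9.21 and 8.73 in DMSO pools. At 2 hpf they were 4.96, 5.14 and 5.16 in TDCIPP pools and 4.93, 5.12 and 4.90 in DMSO pools. These 2 hpf values lay above the array medians of 4.32 to 4.46. Whether they exceeded background was not tested, so the folds below depend on that level. At 6 hpf DMSO pools 1 and 2 were above every TDCIPP pool, while DMSO pool 3 lay within their range. The rise was 3.65 in TDCIPP embryos (SE 0.15, 12.5-fold, limma adjusted p = 2.60e-10) and 4.12 in DMSO embryos (SE 0.15, 17.4-fold, adjusted p = 6.92e-11).

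sox2 (row 13130244), best known as a gene of neural progenitors, rose less than sox19a and sox3 and varied most between pools among the 7 rows. Its log2 signals at 6 hpf were 5.63, 6.57 and 5.95 in TDCIPP pools and 5.86, 7.05 and 5.40 in DMSO pools. At 2 hpf they were 4.53, 4.37 and 4.76 in TDCIPP pools and 4.34, 4.91 and 4.43 in DMSO pools. As for sox19a, the 2 hpf values lay near the array medians, and whether they exceeded background was not tested, so the folds below depend on that level. Pool 2 was the highest at 6 hpf in both treatments, and its arrays read 7.11 and 7.00 in DMSO embryos. The SD at 6 hpf, 0.48 in TDCIPP and 0.85 in DMSO pools, exceeded that of 98.1% of rows in TDCIPP and 99.8% in DMSO. The rise was 1.50 in TDCIPP embryos (SE 0.34, 2.83-fold, limma adjusted p = 0.00316) and 1.54 in DMSO embryos (SE 0.34, 2.92-fold, adjusted p = 0.00254), and it was 1.07 in DMSO embryos without DMSO replicate 2 of 6 hpf.

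**Figure D2:**
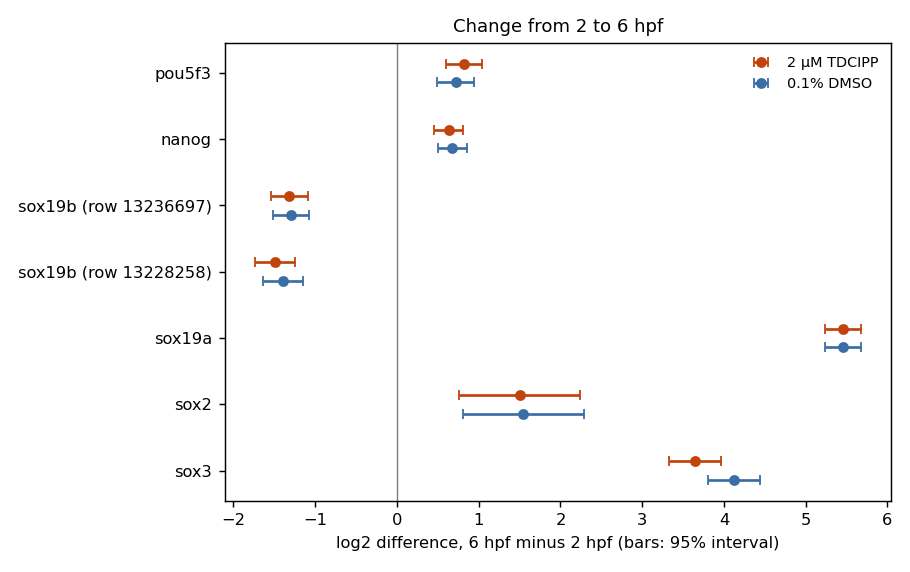
Change in log2 signal between the time points, 6 hpf minus 2 hpf (x axis), for each array row (y axis) in TDCIPP and DMSO embryos; points are limma estimates from 3 pools per group and bars are 95% intervals. No interval reaches 0, sox19a has the largest rise (5.45 in both treatments) and the rows of sox19b lie below 0.

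The order of the groups was the same in kind for all 6 genes, with both groups of one time above both groups of the other and the treatments side by side. In row 13236697 of sox19b the means were 8.21 ± 0.16 in TDCIPP and 8.26 ± 0.079 in DMSO pools at 6 hpf, and 9.53 ± 0.078 in TDCIPP and 9.56 ± 0.12 in DMSO pools at 2 hpf (SD, n = 3 each). At 2 hpf the means of sox19a were 4.33 ± 0.11 in TDCIPP and 4.14 ± 0.15 in DMSO pools, those of sox2 were 4.55 ± 0.20 in TDCIPP and 4.56 ± 0.30 in DMSO pools, and those of sox3 were 5.09 ± 0.11 in TDCIPP and 4.98 ± 0.12 in DMSO pools. In each gene the TDCIPP and DMSO groups of one time point were neighbours, and their difference did not pass the test. Groups that differed in both time and treatment were not compared by a test.

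The comparison of TDCIPP with DMSO embryos asked whether the flame retardant altered the embryo's transcripts at each time. At 6 hpf, none of the 7 rows passed the threshold by limma, as for 0% of all rows, and none had an unadjusted p under 0.05, against 3356 of the 61240 rows (5.48%). When all arrays were fitted with pool as a random effect 52 rows passed, and the one-way test of the study's methods on single arrays passed 68, with none of the 7 rows among them in either case. The small number of pools limits what could be seen, and the intervals give that limit.

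For pou5f3 the difference at 6 hpf, TDCIPP minus DMSO, was 0.079 (95% interval -0.14 to 0.30), which as a ratio runs between 0.908 and 1.23. For nanog it was -0.066 (interval -0.28 to 0.15, ratio 0.823 to 1.11). The rows of sox19b gave -0.045 (interval -0.31 to 0.22) and -0.053 (interval -0.27 to 0.17). A change of 1 log2 unit in either direction lay outside each of these intervals, as it did for sox19a, sox3 and sox2 below. For sox2 this held only narrowly and depended on the fit. Its SE was 0.39 in the main fit, 0.45 with the trend and robust options of eBayes and 0.20 with the replicate number as a block.

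For sox19a the TDCIPP mean at 6 hpf was 9.79 ± 0.039 and the DMSO mean 9.59 ± 0.11 (SD, n = 3 each), a difference of 0.20 (SE 0.10, interval -0.031 to 0.42, limma adjusted p = 0.938). It was the 1 row of the 7 whose TDCIPP and DMSO pools did not overlap at 6 hpf, and 11.0% of all rows had pools that did not overlap. At 2 hpf the difference was also 0.20 (interval -0.056 to 0.45), with overlapping pools, and it was 0.11 without DMSO replicate 1 of 2 hpf.

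For sox3 the TDCIPP mean at 6 hpf was 8.74 ± 0.16 and the DMSO mean 9.10 ± 0.33 (SD, n = 3 each). The difference of -0.37 (SE 0.17, interval -0.75 to 0.020, limma adjusted p = 0.913) was the largest among the 7 rows and lower than in 98.2% of all rows. Omitting DMSO replicate 1 gave -0.24, and omitting DMSO replicate 3 gave -0.55. Array 1 of each pool alone gave -0.53 and array 2 alone -0.21.

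For sox2 the TDCIPP mean at 6 hpf was 6.05 ± 0.48 and the DMSO mean 6.10 ± 0.85 (SD, n = 3 each). The difference of -0.050 (SE 0.39, interval -0.95 to 0.85, limma adjusted p = 0.995) had the widest interval of the 7 rows. Its sign turned without DMSO replicate 2 (0.42) and without TDCIPP replicate 1 (0.16), and it was -0.40 when DMSO replicate 3 was omitted.

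**Figure D3:**
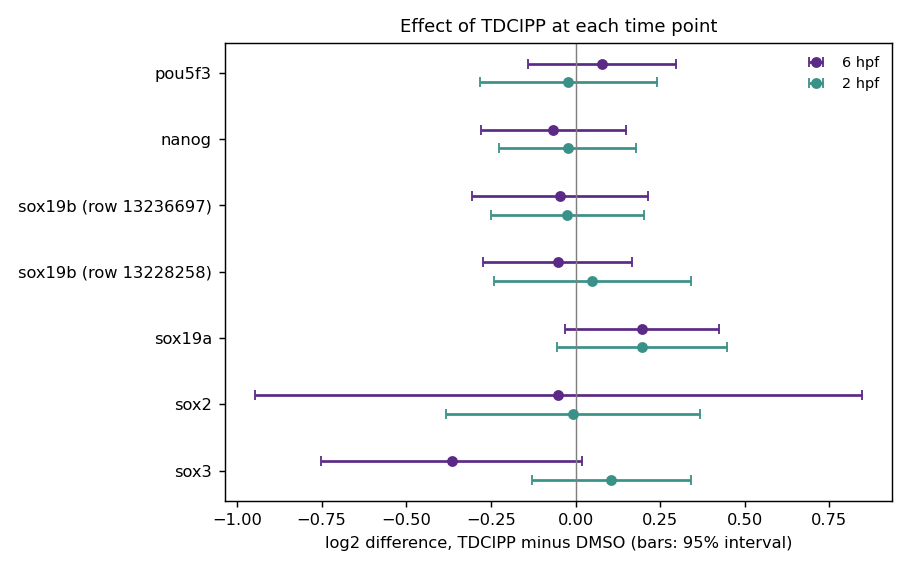
Difference in log2 signal, TDCIPP minus DMSO (x axis), for each array row (y axis) at 6 and 2 hpf; points are limma estimates from 3 pools per group and bars are 95% intervals. Every interval includes 0, and the widest is that of sox2 at 6 hpf, -0.95 to 0.85.

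At 2 hpf, after little more than an hour in the solutions, none of the 7 rows passed by limma, as for 0% of all rows. No member row and 1697 of all rows (2.77%) had an unadjusted p under 0.05, and no tested row passed with pool as a random effect or by the one-way test. No row of the 7 had pools that did not overlap at 2 hpf, beside 7.39% of all rows. The differences were -0.021 for pou5f3 (interval -0.28 to 0.24), -0.023 for nanog (-0.23 to 0.18), -0.024 and 0.050 for the rows of sox19b, -0.0070 for sox2 (-0.38 to 0.37) and 0.11 for sox3 (-0.13 to 0.34).

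A test of whether the TDCIPP effect differed between 6 and 2 hpf called none of the 7 rows and 0% of all rows by limma. Of all rows, 2645 (4.32%) had an unadjusted p under 0.05, and 8 passed the threshold with pool as a random effect. The sox3 row was the 1 member with an unadjusted p under 0.05. Its difference of effects was -0.47 (SE 0.21, limma adjusted p = 1.00), that is, the rise of sox3 was smaller by that amount in TDCIPP than in DMSO embryos, and it ran between -0.66 and -0.31 over all alternatives. The value did not pass the adjustment.

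The first zygotic genes that these factors are known to activate were described from a list of 28 genes, 26 of which had a row of their own. In TDCIPP and in DMSO embryos alike, 24 of the 26 rose between 2 and 6 hpf and 1 fell. Over all rows 20.7% rose and 19.5% fell in TDCIPP embryos, and 20.0% rose and 19.9% fell in DMSO embryos. The median change of the 26 was 3.85 in TDCIPP and 4.18 in DMSO embryos. The largest rises were those of tbx16, a T-box gene of the mesoderm (7.36 in TDCIPP, 7.64 in DMSO), foxa3 (6.14 and 6.18), noto, a homeobox gene of the notochord (6.10 and 5.93), and klf17, a Krüppel-like factor of the hatching gland (6.23 and 5.71). The gene that fell was otx1, and foxa did not pass the test, both named here after their values were seen. otx1 changed by -0.64 in TDCIPP and by -0.52 in DMSO embryos. Its mean log2 signal was 3.97 in TDCIPP and 3.94 in DMSO pools at 6 hpf, and 4.61 and 4.46 at 2 hpf. These values lay near or below the array medians, and whether they exceeded background was not tested. The foxa row already had a mean of 8.77 in TDCIPP and 8.58 in DMSO pools at 2 hpf.

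None of the 26 passed the test between TDCIPP and DMSO at 6 hpf by limma. Of them 19 had a higher and 7 a lower mean in TDCIPP embryos, with a median difference of 0.13, beside -0.00073 over all rows. Pools did not overlap in 8 of the 26, 4 in each direction, beside 11.0% of all rows. The 4 with the smallest unadjusted p were vent (-0.80, SE 0.20), klf17 (0.40, SE 0.12), foxd3 (0.59, SE 0.17) and vox (-0.33, SE 0.11). vent and vox encode ventral homeodomain repressors and foxd3 a forkhead factor, and their adjusted p-values lay between 0.742 and 0.831.

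Of 12 genes listed as partners and cofactors of the activators, 9 had a row. Whether each of them acts with the activators was not tested. In TDCIPP embryos 5 rose and 4 fell, beside 20.7% of all rows higher and 19.5% lower. In DMSO embryos 4 rose and 4 fell, beside 20.0% of all rows higher and 19.9% lower. The call lost in DMSO embryos was crebbpb, chosen here after its values were seen, with changes of 0.25 in TDCIPP and 0.22 in DMSO embryos, and with arrays centred on their medians it passed in neither treatment. The largest changes were those of crebbpa, a histone acetyltransferase of the p300 family (-2.13 in TDCIPP, -2.02 in DMSO), dnmt1, the maintenance DNA methyltransferase (-2.07 and -2.02), tcf3b (1.15 and 1.15) and tcf3a (1.17 and 1.09), the last 2 being E-protein genes. foxh1, a maternal partner of Smad2 (0.68 and 0.61), rose, and eomesa, a T-box gene that acts with Nanog (-0.73 and -0.80), fell. None passed the test between treatments at 6 hpf, and none had pools that did not overlap, beside 11.0% of all rows. The differences ranged between -0.13 (crebbpa) and 0.074 (eomesa), with -0.071 for foxh1 and -0.032 for ep300a, another histone acetyltransferase gene.

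The other SoxB genes, the SoxB1 genes sox1a and sox1b with sox14, sox21a and sox21b, changed by less than 0.5 in either treatment. sox21b, a SoxB2 repressor, rose by 0.44 in TDCIPP and by 0.31 in DMSO embryos, but with arrays centred on their medians the change of 0.18 in DMSO embryos did not pass. sox21a changed by -0.26 in TDCIPP embryos, which did not pass the test, and fell by 0.31 in DMSO embryos (limma adjusted p = 0.0912). With arrays centred on their medians sox21a changed by -0.41 in TDCIPP embryos and sox1a by -0.43 in DMSO embryos, and both passed, while as given sox1a changed by -0.30 in DMSO embryos and did not pass. The group means of sox1a, 3.80 to 4.11, lay below the array medians, and whether they exceeded background was not tested. sox21b differed by 0.24 between TDCIPP and DMSO at 6 hpf (SE 0.11, limma adjusted p = 0.913), with pools that did not overlap, as in 11.0% of all rows. The differences of sox14 (-0.12), sox1b (-0.051) and sox21a (-0.027) were smaller still.

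**Figure D4:**
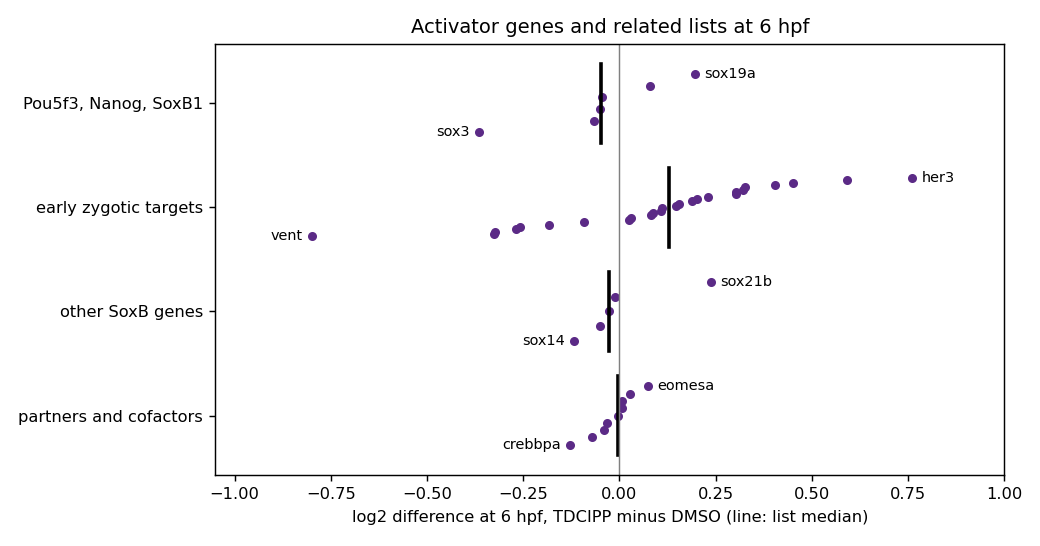
Difference in log2 signal at 6 hpf, TDCIPP minus DMSO (x axis), for each gene of 4 lists (y axis); a point is 1 gene, a vertical line is the median of its list, and the lowest and highest gene of each list are named. The activators range between -0.37 (sox3) and 0.20 (sox19a), and no gene in the 4 lists passed the test.

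The stage of the embryos was checked with marker lists. Of 8 measured maternal transcripts 6 fell in each treatment, beside 19.5% of all rows in TDCIPP and 19.9% in DMSO embryos. All 7 gastrula markers and all 6 markers of the enveloping and yolk syncytial layers rose, beside 20.7% of all rows in TDCIPP and 20.0% in DMSO embryos. The gastrula markers noto and mixl1 and the yolk syncytial layer marker mxtx2 were also among the first zygotic genes above. Of 6 later differentiation markers 2 rose in each treatment, elavl3 (0.58 in TDCIPP, 0.35 in DMSO, the second not past the test after median centring) and krt5 (5.27 and 5.10), which also marks surface epithelium. Between TDCIPP and DMSO, 6 of the 8 maternal markers were higher in TDCIPP embryos at 6 hpf (median difference 0.11). All 8 were higher at 2 hpf (median 0.093), and 7 of them with repeated quantile normalization (median 0.069). Of the 7 gastrula markers 4 were higher and 3 lower at 6 hpf, with a range of -0.85 (eve1) to 0.65 (chrd). None of these maternal and gastrula markers passed the test by limma. The gastrula list also held szl, which had no row of its own. The paper, which tested single arrays, reports szl as its most affected transcript at 6 hpf and chordin (chrd here) as increased. At 6 hpf the enveloping and yolk syncytial layer markers had a median difference between TDCIPP and DMSO of 0.21, with 5 of 6 higher in TDCIPP embryos and none past the test. At 2 hpf 2 of the 6 were higher and 4 lower (median -0.016), and none passed the test. The lowest was krt92 (-0.85, SE 0.098), with pools that did not overlap, as in 7.39% of all rows. The part of these marker differences in the differences of the activators was not tested.

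Among 19254 named genes outside the 6, those whose pattern over the 12 pools was nearest to each activator were found by the root mean square (RMS) difference of log2 signals, each gene taken relative to its own mean. For pou5f3 they were srsf2a (RMS 0.070) and srsf1a (0.074), both genes of SR splicing factors, and shkbp1 (0.076). For nanog they were hnrnpaba (0.046), an RNA-binding protein gene, a gene with only a clone-based name (0.050) and smarcd1 (0.057), a chromatin remodelling subunit gene. For sox19b they were mtf2 (0.058), which encodes an accessory subunit of Polycomb complex PRC2, fam168b (0.068) and cbl (0.073), a ubiquitin ligase gene. These patterns are steps between the time points with little spread inside a group.

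For sox19a the nearest were id1 (RMS 0.15), a helix-loop-helix inhibitor gene, net1 (0.16), an exchange factor gene for RhoA, and akap12b (0.19). id1 rose by 5.38 in TDCIPP and 5.62 in DMSO embryos. For sox3 they were hmgn6 (0.14), a nucleosome-binding protein gene, tmem154 (0.17) and rnd1b (0.18). hmgn6 rose by 3.64 in TDCIPP and 3.91 in DMSO embryos, beside 3.65 and 4.12 for sox3. For sox2 they were hkdc1 (0.20), a hexokinase-domain gene, agr1 (0.23) and celsr1a (0.24), a cadherin gene of planar cell polarity. As these genes were chosen for their likeness over the same pools, a shared course, including the high 6 hpf signal of pool 2, follows from the choice.

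**Figure D5:**
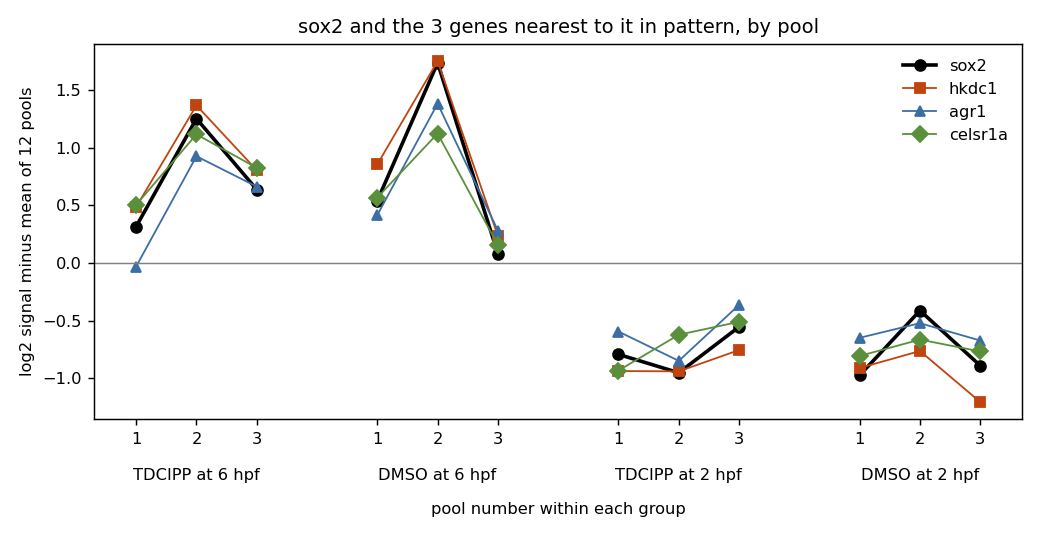
Log2 signal minus each gene's mean over 12 pools (y axis) for sox2 and the 3 genes nearest to it, by pool within each group (x axis). The 3 genes were chosen for likeness to sox2 over these pools, and the lines are highest in pool 2 at 6 hpf, where sox2 had log2 signals of 6.57 in TDCIPP and 7.05 in DMSO embryos.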

How the data were processed

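RNA of 12 pools was run on 24 one-color Zebrafish Gene 1.0 ST arrays. The authors made gene-level log2 signals of each array in Affymetrix Expression Console by RMA (Robust Multichip Analysis: background correction, quantile normalization and probe summary) (version not given in the sources used here). The deposited table has 75212 rows, of which 13972 at the start, none with a gene, were left out. Of the tested rows 20806 had 1 gene symbol, 855 several and 39579 none. All 6 genes were matched to a current gene list, and no sequence was used here.

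The 2 arrays of a pool were averaged. Across the 7 rows, they differed by a median of 0.041 to 0.19 log2 units and by up to 0.73. Groups were compared by two-sided tests in limma 3.58.1 (R 4.3.3; lmFit, then eBayes), and p-values were adjusted by Benjamini-Hochberg over all tested rows, with a threshold of 0.1. Treatments were compared within a time point. Changes over time, and the difference of effects, came from all 12 pools. The number of pools limits precision.

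The fits were tested on simulated data over 61240 rows: at 6 hpf, 8% of changes of 0.5 and 76% of changes of 1 log2 unit between treatments were called. The members and lists were chosen with earlier results of these data known. Named from each other list were the 4 genes with the smallest unadjusted p at 6 hpf, the 4 with the largest change over time in DMSO, any past the threshold between treatments, and the 3 nearest in pattern to each activator. Stage marker lists are given by counts. A gene with several rows was represented by its brightest row. Alternatives tried were either array alone, pool as a random block, the replicate number as a block, eBayes with trend and robust options, another set of pools for the spread, median centring, repeated quantile normalization, a minimum mean log2 signal of 5, all rows, the one-way test of the study's methods, and leaving out each pool.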

Additional observations from a re-analysis of the deposited data

How the results depend on the processing

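In every alternative all 7 rows changed over time as given, and none passed the test in a treatment contrast, where the smallest adjusted p was 0.492. Of 483 recomputed values of single rows, 461 kept their direction and their side of the threshold, and 22 treatment differences changed sign. At 6 hpf, sox2 was 0.053 with array 2 alone and ran from -0.40 to 0.42 as pools were left out, sox19b row 13228258 was 0.16 with array 1 alone, and sox19b row 13236697 ran from -0.14 to 0.011 as pools were left out. At 2 hpf, array 1 alone gave 0.022 for nanog, 0.046 for sox19b row 13236697, -0.071 for sox19b row 13228258 and 0.032 for sox2, and array 2 alone gave 0.031 for pou5f3. sox2 at 2 hpf was 0.0089 with median centring and 0.0085 with repeated quantile normalization. Leaving out each pool at 2 hpf gave ranges of -0.11 to 0.058 for pou5f3, -0.058 to 0.0093 for nanog, -0.086 to 0.029 and -0.061 to 0.14 for the rows of sox19b, and -0.11 to 0.17 for sox2. The cause was not tested.

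Over all rows, calls at 6 hpf between treatments numbered 0 as given, against 52 with pool as a random effect, 14 with trend and robust options, 17 with 1 spread over all 12 pools, 1 with array 1 alone, 68 by the one-way test and 2 without DMSO replicate 3. For the difference of effects they numbered 0, against 8 with pool as a random effect, 2 with trend and robust options, 3 without TDCIPP replicate 2 of 6 hpf and 2 without DMSO replicate 3 of 6 hpf. The correlation between the arrays of a pool in the random-effect fits was 0.0603 for treatments at 6 hpf and 0.122 for the difference of effects. Those fits thus counted the 2 arrays of a pool nearly as separate samples.

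Pools of the 4 groups share replicate numbers. Deviations of same-numbered TDCIPP and DMSO pools correlated at 0.0888 to 0.183 at 6 hpf and at 0.0522 to 0.249 at 2 hpf. At 6 hpf same-numbered pools also led together in more rows than pools of different numbers, as counted below. The main fits did not take the numbers as pairs, and whether same-numbered pools share an origin was not tested. With the replicate block, 0 of the 7 rows passed in each treatment contrast and 7 in each change over time, as without it. The SE of the sox2 difference at 6 hpf was 0.20 with the block and 0.39 without it.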

Other observations

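After the sox2 values were seen, rows in which pool 2 exceeded both other pools of its group by more than 0.5 log2 units at 6 hpf were counted. There were 611 such rows in TDCIPP and 749 in DMSO embryos, and 59 rows were in both. Pool 1 led in both treatments in 60 rows and pool 3 in 59, while pools of different numbers led together in 14 to 27 rows. The 59 rows of pool 2 held 24 named genes besides unnamed rows, sox2 and its nearest gene hkdc1 among them. Examples chosen after their values were seen are sp5l, a zinc finger gene, and serpinh1b, a collagen chaperone gene. sp5l had log2 signals of 6.48, 7.92 and 7.11 in TDCIPP pools and 6.40, 8.26 and 6.01 in DMSO pools at 6 hpf. serpinh1b had 3.74, 5.21 and 3.97 in TDCIPP pools and 3.60, 5.41 and 3.33 in DMSO pools. No gene group was tested among the 24. The cause of this spread among pools was not tested.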
